A study of Mus musculus with 12 samples.

Results

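The 10 genes described here mark the alveolar type 1 cell, the thin, flat epithelial cell across which gas passes between air and capillary. They are Ager, Aqp5, Hopx, Pdpn, Rtkn2, Clic5, Akap5, Emp2, Cav1 and Igfbp2. Members were taken by exact gene symbol from a whole-lung RNA count table of 55487 genes. All 10 had 1 row there, and all 10 were among the 45828 genes that passed the filter on low counts and were tested. The 12 lungs came from C57BL/6J mice on postnatal day 21. Every mouse, room-air controls included, carried the miR-30a -/- genotype, and no wild-type lung was analysed here. Pups had breathed 95% oxygen (hyperoxia) or room air on postnatal days 1 to 5 and were then kept in room air, with 3 lungs for each sex and exposure. The lungs are named by exposure, sex letter and the number in their title: room air M1, M4, M5, F2, F5 and F6, and hyperoxia M1, M2, M3, F2, F4 and F5. The genotype was made by CRISPR/Cas9 deletion of a stretch of DNA that holds the microRNA gene in all cells, and pups of several litters were pooled and redistributed before exposure.

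Alveolar type 1 cells cover most of the gas-exchange surface, and in the growing lung they arise from a shared distal progenitor and from alveolar type 2 cells, the surfactant makers. Their fate is set by Nkx2-1, the homeodomain factor of the lung epithelium, and by the Hippo pathway, in which the kinases Lats1 and Lats2 restrain Yap1 and Wwtr1 (Taz), the coactivators of the Tead factors. Oxygen exposure of the neonatal rodent lung injures the alveolar epithelium and is used as a model of bronchopulmonary dysplasia. The study asked how the male and female lung respond when miR-30a is missing.

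MicroRNAs silence mRNAs through their seed, bases 2 to 8, so the sequence missing from these mice and 3 of the microRNAs that share its seed are shown here with the seed in capitals (RefSeq, GRCm38.p6).
mmu-miR-30a-5p: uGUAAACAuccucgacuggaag
mmu-miR-30c-5p: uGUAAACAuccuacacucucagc
mmu-miR-30e-5p: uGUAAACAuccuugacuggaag
mmu-miR-384-5p: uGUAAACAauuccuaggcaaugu
The first is encoded at chr1:23272274-23272295 on the plus strand. The longest annotated 3′ untranslated region of each of the 10 genes was searched for the 7 bases complementary to this seed. None of the 10 held a match, against 2884 of 20996 protein-coding genes (13.7%). The median length searched was 1470 bases for the 10 genes and 954 bases for all protein-coding genes. This describes perfect 7-base matches in these regions and says nothing about other sites. RefSeq promoters (250 bases before to 50 after the start) were found for 9 of the 10 genes, 12 promoters in all. The Tead core GGAATG, on either strand, was in none of the 12 and in 14.7% of 32851 promoters. The NK2-type core TNAAGTG, on either strand, was in 1 of the 12, a Hopx promoter, and in 11.5% of all promoters.

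Total counts ran from 8763033 in hyperoxia M2 to 16741694 in room air F5. A single predicted gene, Gm10800, took between 6.04% and 23.9% of them, and the 10 alveolar type 1 genes together took 0.194% to 0.391%. Genes of olfactory and vomeronasal receptors, best known from sensory neurons of the nose, took from 0.410% (room air F5) to 0.945% (hyperoxia M2) of counts. The paper names an olfactory receptor gene among neuroendocrine cell genes that were upregulated in the hyperoxic miR-30a -/- female lung. This receptor share was used as a measure of reads that do not come from lung transcripts, though how much of it does was not tested. It overlapped between the exposures in both sexes but was on average higher in hyperoxic than in room-air females, 0.766% ± 0.0901 against 0.555% ± 0.168 (SD, n = 3 each). In males it was 0.728% ± 0.215 with hyperoxia and 0.770% ± 0.129 in room air (SD, n = 3 each). The skeletal muscle actin gene Acta1 was at 729 CPM in room air M1 and between 4.77 and 7.48 CPM in the other 11 lungs.

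All 10 genes were well counted in every lung labelled as lung tissue. The lowest count was 179 (Igfbp2, hyperoxia M2) and the highest 14265 (Clic5, room air F5), so counting error was small beside the differences between lungs. Counts were scaled to counts per 1000000 (CPM) by the upper-quartile method, and per kilobase of exon where genes are compared with each other. Ager, the receptor for advanced glycation end products and the classic basolateral marker of these cells, had the highest level per length, 189.9 ± 47.9 CPM per kilobase (SD, n = 12). Cav1, the coat protein of caveolae, followed at 168.8 ± 41.6 CPM per kilobase. Ager was above Cav1 in 9 of 12 lungs, so this pair was not separated in every lung.

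Emp2, a tetraspan membrane protein, stood at 71.7 ± 18.4 CPM per kilobase and Clic5, a chloride intracellular channel family protein bound to the cortical cytoskeleton, at 70.7 ± 19 (SD, n = 12 each). Emp2 was the higher of these in 7 of 12 lungs. The atypical homeodomain gene Hopx stood at 47.7 ± 11.5 and the kinase-anchoring scaffold Akap5 at 42.3 ± 11.1 CPM per kilobase, with Hopx above in 11 of 12 lungs. Pdpn (podoplanin) and Rtkn2 were close, at 33.6 ± 7.15 and 33.2 ± 7.68 CPM per kilobase, with Pdpn above in 8 of 12 lungs. Aqp5, the apical water channel, stood at 29.5 ± 9.73 CPM per kilobase and was below Rtkn2 in 10 of 12 lungs. Igfbp2, a secreted binder of insulin-like growth factors that marks mature alveolar type 1 cells, was lowest at 12.8 ± 3.19 CPM per kilobase. Each of the steps from Cav1 to Emp2, from Clic5 to Hopx, from Akap5 to Pdpn and from Aqp5 to Igfbp2 kept its direction in 12 of 12 lungs.

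The 10 genes are spread over 9 chromosomes (mm10, GENCODE M21). Ager lies at chr17:34597862-34600936 and Clic5 at chr17:44188584-44280172, both on the plus strand. The rest lie at chr15:99590782-99594829 (Aqp5, plus), chr5:77086988-77115121 (Hopx, minus), chr4:143267431-143299564 (Pdpn, minus), chr10:67979570-68059740 (Rtkn2, plus), chr12:76324891-76334153 (Akap5, plus), chr16:10281749-10313968 (Emp2, minus), chr6:17306335-17341452 (Cav1, plus) and chr1:72824503-72852474 (Igfbp2, plus). Antisense genes overlap 3 of them, with Gm15581 at 7.07 CPM over Cav1, Gm16212 at 3.93 CPM over Rtkn2 and Hopxos at 8.49 CPM over Hopx. The strand setting used in counting is not given in the sources used here, so reads of these 3 genes and their antisense partners cannot be told apart.

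Comparing hyperoxia with room air in females, none of the 10 genes passed the test (edgeR quasi-likelihood, Benjamini-Hochberg adjusted p under 0.05 and a change over 1.5-fold), while all 10 had a lower mean level after hyperoxia. Over all genes tested, 0.00218% (1 gene) were called in females. The log2 changes of the 10 genes ran from -0.72 (Aqp5) to -0.35 (Cav1), with a median of -0.46, and their adjusted p from 0.339 to 0.577. DESeq2 also called none of the 10, with a smallest adjusted p of 0.165. At an unadjusted p under 0.05, 4 of the 10 were lower (Aqp5, Hopx, Pdpn and Igfbp2), against 5.28% of all genes tested and 14.4% of the 14605 genes with a mean of at least 10 CPM, among which all 10 fall.

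Aqp5 showed the largest change of the 10. It was at 126.2, 123.6 and 66.5 CPM in room air F2, F5 and F6, and at 63.9, 63.8 and 64.3 CPM in hyperoxia F2, F4 and F5. The hyperoxic lungs lay within 1 CPM of each other, and F6 of the room-air lungs was only just above them. Aqp5 was the single gene of the 10 whose female groups did not overlap, where 6.42% of all genes tested, and 15.6% of those with a mean of at least 10 CPM, did not overlap with hyperoxia lower. Its log2 change was -0.72 ± 0.24 (SE, 95% interval -1.21 to -0.23, adjusted p = 0.339). Without room air F6, the change was -0.97 and Aqp5 passed the test with an adjusted p of 0.0476. It also passed with 1 factor of unwanted variation removed by RUVr, at -0.67 and an adjusted p of 6.43e-07. These fits called 206 and 1900 of all genes in females, in that order, against 1 in the fit reported here. In 23 alternative fits the change of Aqp5 lay between -0.97 and -0.15, the largest adjusted p being 0.980.

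Pdpn, a mucin-type glycoprotein of the apical membrane that lymphatic endothelium and mesothelium also make, was at 85.3, 82.0 and 57.8 CPM in room air F2, F5 and F6 and at 55.9, 51.4 and 58.4 CPM in hyperoxia F2, F4 and F5. Hopx was at 96.3, 102.1 and 70.9 CPM in the room-air lungs and at 75.4, 58.3 and 57.7 CPM in the hyperoxic lungs, in the same order. Igfbp2 was at 37.9, 31.7 and 18.2 CPM in room air and at 22.6, 22 and 21.9 CPM after hyperoxia. In all 3 genes room air F2 and F5 were high and room air F6 lay within or below the hyperoxic range, so the groups overlapped. The log2 changes were -0.44 ± 0.20 for Pdpn, -0.49 ± 0.22 for Hopx and -0.40 ± 0.19 for Igfbp2 (SE), with adjusted p from 0.384 to 0.389. Igfbp2 was at -0.17 without room air F2 and at -0.66 without room air F6.

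Ager was at 553.2, 565.7 and 395.4 CPM in room air F2, F5 and F6, and at 415.8, 313.5 and 376.0 CPM in hyperoxia F2, F4 and F5. Its log2 change was -0.45 ± 0.30 (SE, 95% interval -1.06 to 0.16). Clic5 was at 849.3, 907.4 and 620.3 CPM in room air and at 629.7, 460.2 and 501.8 CPM after hyperoxia. For Clic5 the log2 change was -0.58 ± 0.31 (SE, adjusted p = 0.419), the second largest of the 10. In both genes F6 of the room-air lungs lay inside the hyperoxic range.

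Cav1, which capillary endothelium makes in quantity as well, was at 667.1, 849.4 and 520.8 CPM in room air F2, F5 and F6 and at 620.2, 525.0 and 450.5 CPM in hyperoxia F2, F4 and F5, the smallest change of the 10. Its log2 change was -0.16 without room air F5 and -0.52 without room air F6. Emp2 averaged 760 ± 154 CPM in room air and 540 ± 94.1 CPM after hyperoxia (SD, n = 3 each). Akap5 averaged 347 ± 79.7 and 253.0 ± 31.6 CPM, and Rtkn2 219 ± 30.5 and 169 ± 29.2 CPM, in the same groups (SD, n = 3 each). For all 10 genes room air F2 and F5 were above the 3 hyperoxic lungs, and for 9 of them room air F6 was not. Room air F2 and F5 also had the lowest receptor shares of the female lungs (0.516% and 0.410%).

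**Figure D1:**
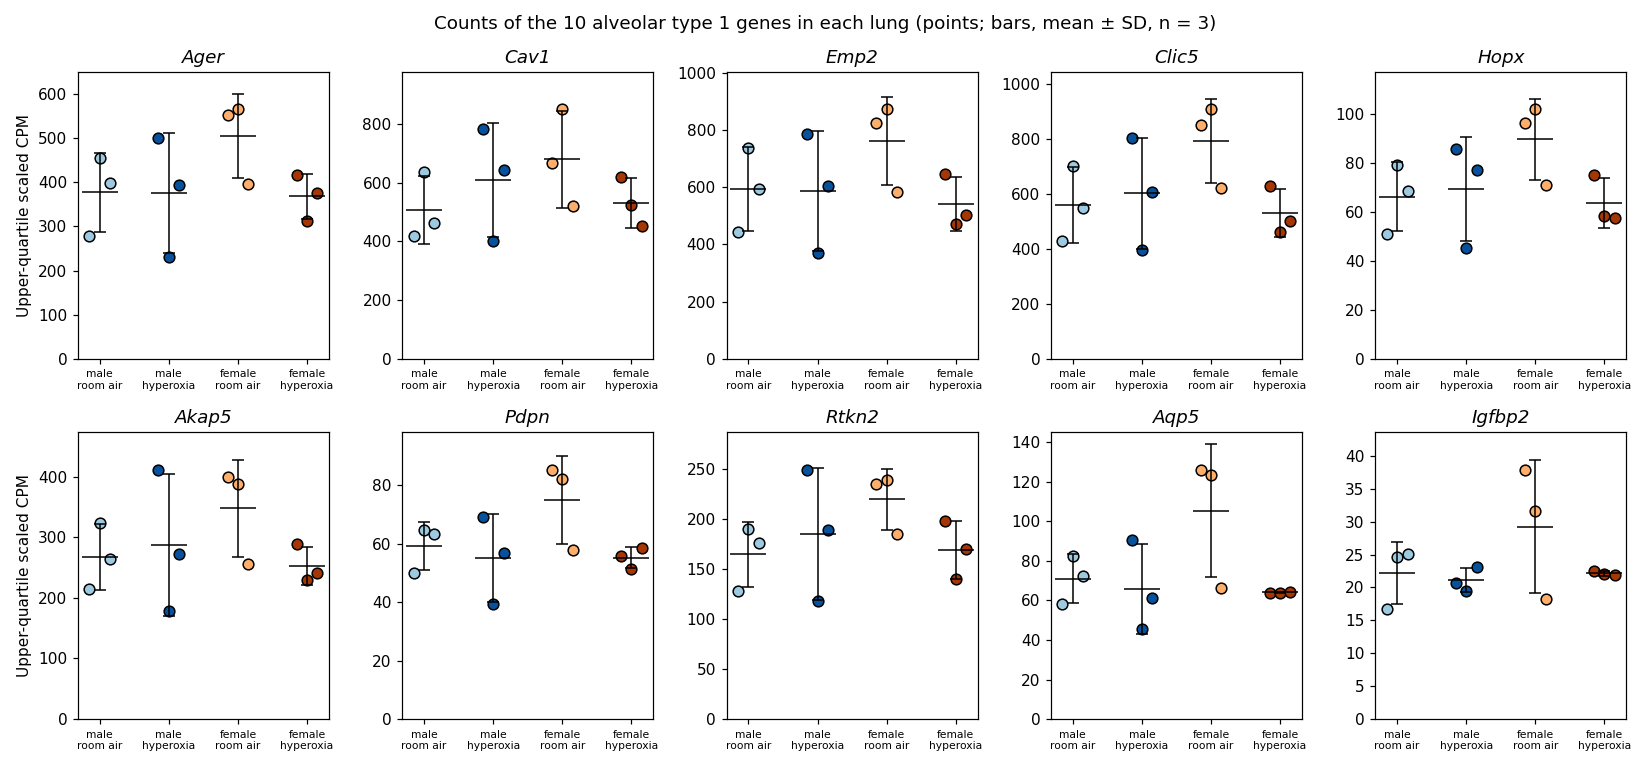
Level of each of the 10 alveolar type 1 genes (upper-quartile scaled CPM, axes from 0) in the 3 lungs of each sex and exposure, with points for lungs and bars for mean ± SD. In 9 panels 2 of the 3 room-air female lungs stand above the hyperoxic female lungs and in that of Aqp5 all 3 do, and the male groups overlap throughout.

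When the fit held a term for the receptor share, the median log2 change of the 10 genes in females was -0.0016, with 5 genes lower and 5 higher and the smallest adjusted p at 0.962. When a background proportional to exon length, taken from the receptor genes, was subtracted from the counts, all 10 genes were still lower in hyperoxic females with a median of -0.22. That background made up 0.600% of the counts of Ager and 8.96% of those of Igfbp2 over the 12 lungs, the lowest and the highest of the 10. Subtracting it also changed the genes tested (38183) and with them the scaling, and these parts were not told apart. When only the 14605 genes with a mean of at least 10 CPM were kept for scaling and testing, all 10 were lower with a median of -0.18. After RUVr with 1 factor, 9 of the 10 genes had an adjusted p under 0.05 in females, but Aqp5 alone also exceeded the 1.5-fold change. By both thresholds the same fit called 1900 of all genes in females, against 1 in the fit reported here.

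**Figure D2:**
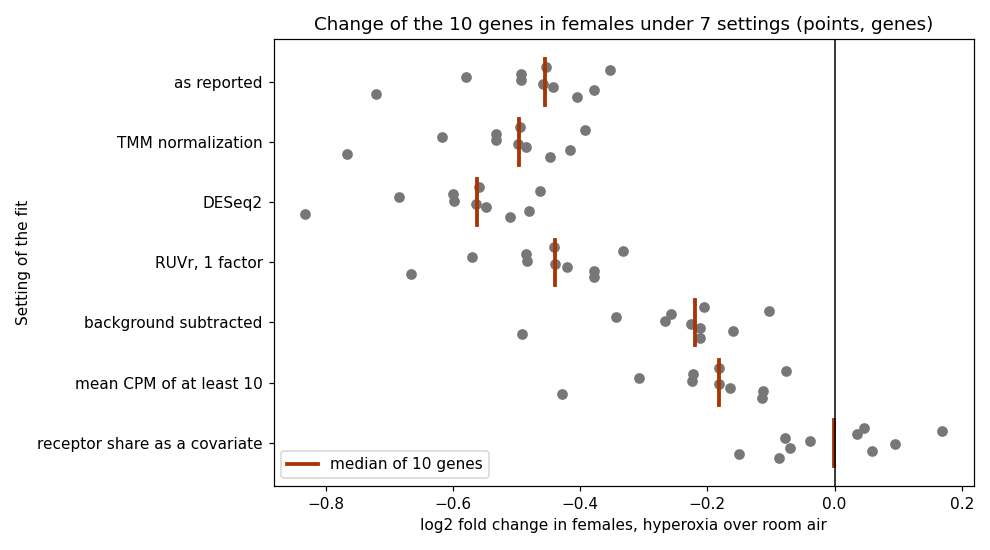
Log2 change of each of the 10 genes in females, hyperoxia over room air (horizontal axis), under 7 settings of the fit (vertical axis), with points for genes and a bar for their median. The median is -0.46 as reported, -0.22 with background subtracted and -0.0016 with a receptor-share term.

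In males no gene of the 10 passed the test, and the groups overlapped for all 10. The share of all genes called in males was 0%, and none of the 10 was at an unadjusted p under 0.05 or called by DESeq2. The male groups did not overlap, in either direction, for 6.62% of all genes tested. Of the 10, 5 had a higher and 5 a lower mean after hyperoxia, with log2 changes from -0.11 (Aqp5) to 0.27 (Cav1) and a median of 0.03. The 95% intervals reached from -0.66 to 0.90 over the 10 genes, so a change of the size estimated in females was inside the male interval for 6 of them.

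Ager was at 278.9, 455.0 and 398.8 CPM in room air M1, M4 and M5, and at 501.3, 230.4 and 394.6 CPM in hyperoxia M1, M2 and M3. Aqp5 was at 58.2, 82.5 and 72.4 CPM in room air and at 90.5, 45.4 and 61.3 CPM after hyperoxia in the same order. Cav1 was at 417.0, 636.7 and 463.4 CPM in room air and at 783.2, 401.4 and 642.4 CPM after hyperoxia. In 9 of the 10 genes hyperoxia M1 was the highest and hyperoxia M2 the lowest of the 6 male lungs, with Igfbp2 the exception. These lungs had the lowest (0.515%) and the highest (0.945%) receptor share among males. Without hyperoxia M1 the male median log2 change was -0.20, without room air M1 it was -0.13, without hyperoxia M3 -0.02, without room air M4 0.21 and without hyperoxia M2 0.28, against 0.03 with all lungs. Without both lungs of highest receptor share (room air M1 and hyperoxia M2), an alternative chosen after seeing the data, it was 0.11 and none of the 10 was called.

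**Figure D3:**
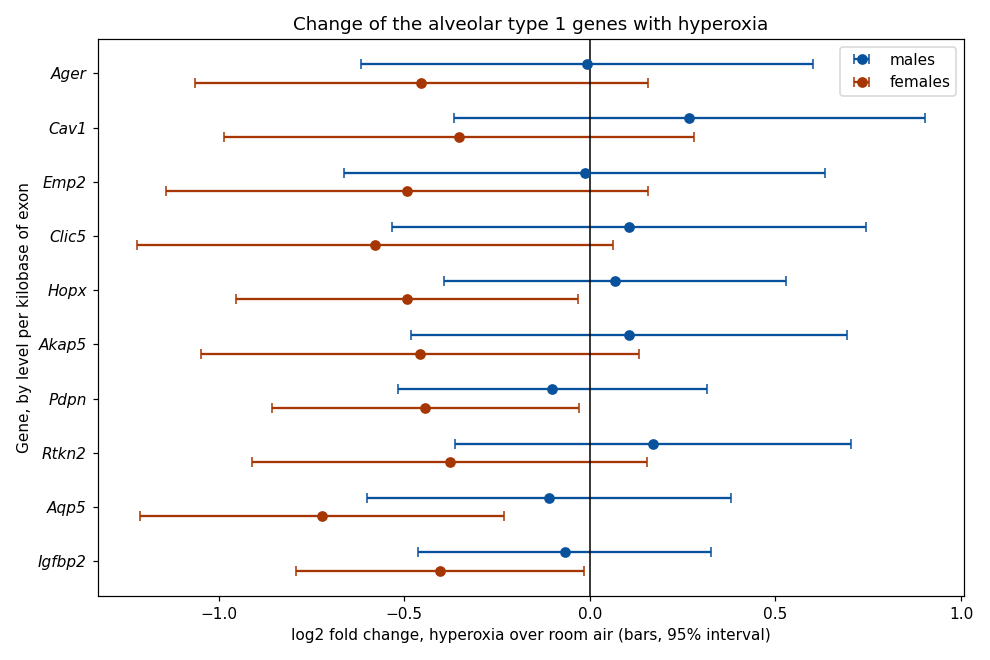
Log2 fold change of each gene, hyperoxia over room air (horizontal axis), in males and females, with points for the estimate and bars for the 95% interval, genes ordered by level per kilobase of exon. All female estimates lie between -0.72 and -0.35, and the male estimates between -0.11 and 0.27.

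With the sexes pooled, again none of the 10 genes passed the test or was called by DESeq2, and 0.0415% (19) of all genes tested were called. All 10 had a lower mean after hyperoxia, from -0.42 ± 0.17 (SE) for Aqp5 to -0.04 ± 0.22 for Cav1, with a median of -0.23 and adjusted p from 0.927 to 0.985. Of all genes with a mean of at least 10 CPM, 65.8% were lower pooled. The pooled median of the 10 was -0.36 without hyperoxia M1, -0.14 without room air M4 and -0.11 without hyperoxia M2. It was -0.055 with the receptor share as a covariate, -0.15 with background subtracted and -0.11 among genes with a mean of at least 10 CPM. After RUVr with 1 factor, which called 92 of all genes pooled, 7 of the 10 had an adjusted p under 0.05 (smallest 2.95e-05), all with changes under 1.5-fold. Aqp5 was the single one at an unadjusted p under 0.05, where 2.52% of all genes tested, and 5.85% of those with a mean of at least 10 CPM, were lower at that p. The difference between the sexes was tested directly. The interaction (female minus male log2 change) was negative for all 10 genes, from -0.68 ± 0.44 (SE) for Clic5 to -0.34 ± 0.27 for Igfbp2, but none passed the test, with adjusted p from 0.578 to 0.661. It was negative for 72.0% of all genes with a mean of at least 10 CPM, with a median of -0.21 over these. The interaction of Igfbp2 was -0.11 without room air F2 and -0.59 without room air F6, and that of Clic5 was -0.43 without hyperoxia M1. None was at an unadjusted p under 0.05 or called by DESeq2 in the interaction, and 0% of all genes were called. RUVr with 1 factor called 2102 of all genes in the interaction. It gave 7 of the 10 an adjusted p under 0.05 but of these called Clic5 alone, at -0.65 with an adjusted p of 2.08e-05. With a receptor-share term in the fit 9 of the 10 interactions turned positive. With no such term the median interaction was -0.56 with all lungs, -0.25 with background subtracted and -0.22 among genes with a mean of at least 10 CPM, and it was -0.30 without hyperoxia M1 and -0.80 without hyperoxia M2. A difference between the sexes was thus not detected, and the intervals, from -1.59 to 0.44 over the 10 genes, did not exclude one.

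Between females and males, both exposures averaged, all 10 genes had a higher mean in females, by 0.10 (Akap5) to 0.27 (Aqp5) on the log2 scale. Of the 14605 genes with a mean of at least 10 CPM, 9019 were higher in females. None of the 10 passed the test (adjusted p from 0.866 to 0.975), none was at an unadjusted p under 0.05 and DESeq2 called none, while 1.22% of all genes tested were called. The receptor share was 0.660% ± 0.167 in females and 0.749% ± 0.160 in males (SD, n = 6 each), and with it as a covariate 5 of the 10 genes were lower in females. The median difference was 0.16 with all lungs, 0.082 without room air M1, 0.088 without hyperoxia F2, 0.27 without hyperoxia M1 and 0.045 without hyperoxia M2, where 2 of the 10 genes were lower in females. After RUVr with 1 factor, which called 1006 of all genes between the sexes, 2 of the 10 had an adjusted p under 0.05.

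The 10 genes moved together from lung to lung. Their summed level ran from 1845 CPM (hyperoxia M2) to 4161 CPM (room air F5), and Pearson's r between the log2 levels of 2 members over the 12 lungs had a median of 0.917 over the 45 pairs. The lowest r was 0.588 (Cav1 and Igfbp2) and the highest 0.985 (Clic5 and Emp2). Measured as deviations from the 4 group means, the median r was 0.925. Igfbp2 stood a little apart, with a median r of 0.701 to the other 9 genes, while the others had medians from 0.887 to 0.967. Levels from 1 library share its scaling, so these values are a description.

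Each of the 10 genes was lower in lungs with a higher receptor share. Pearson's r over the 12 lungs ran from -0.954 (Clic5) to -0.711 (Igfbp2) and Spearman's rank correlation from -0.986 (Hopx) to -0.615 (Igfbp2). Without the 2 lungs farthest from the median share (room air F5 and hyperoxia M1), r ran from -0.971 to -0.833, and within the 4 groups from -0.956 to -0.619. Most well-counted genes shared this direction. Among 14595 other genes with a mean of at least 10 CPM the median r was -0.67, and 47.1% had an r at or below that of Igfbp2. Both measures come from the same libraries, so these values are a description and no test is given. Beyond the fits with the share as a covariate or with background subtracted, its part in the female difference was not tested.

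**Figure D4:**
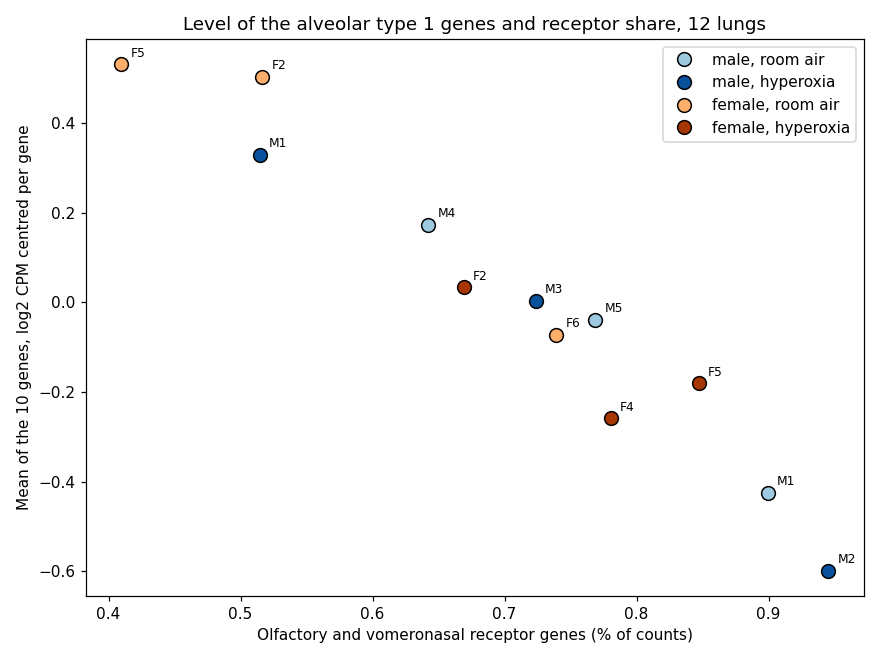
Mean level of the 10 genes (log2 CPM, each gene centred on its mean over the 12 lungs, vertical axis) against the share of counts on olfactory and vomeronasal receptor genes (horizontal axis), 1 point for each lung. Room air F5 and F2 and hyperoxia M1 sit at the low-share, high-level end, and room air M1 and hyperoxia M2 at the opposite end.

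The ratios of the 10 genes to the other alveolar type 1 genes and to the alveolar type 2 and endothelial markers varied less from lung to lung than their level. The 10 genes stood at 0.49 to 0.525 times the summed CPM of 20 other alveolar type 1 genes in every lung. The ratio to 10 alveolar type 2 markers ran from 0.334 to 0.427, and that to 10 endothelial markers from 0.92 to 1.03. The highest lung of a gene was at 2.12 (Cav1) to 2.78 (Aqp5) times its lowest. In females the ratio to the alveolar type 2 markers was 0.375 ± 0.0476 in room air and 0.380 ± 0.00228 after hyperoxia (SD, n = 3 each). The ratio to the endothelial markers was 1.003 ± 0.0267 in room air and 0.962 ± 0.0384 after hyperoxia (SD, n = 3 each). In males the ratio to the alveolar type 2 markers was 0.387 to 0.413 in room air and 0.357 to 0.368 after hyperoxia, and that to the endothelial markers was 0.949 to 1.009 and 0.926 to 0.933. The male groups did not overlap in either ratio, with hyperoxia lower, and the exact permutation test (two-sided, 6 ratios tested) gave p = 0.1 for each, the smallest that 3 lungs against 3 allow. The female differences had exact p of 0.9 and 0.2. The ratio to the other alveolar type 1 genes had an exact p of 1 in males and 0.6 in females. Within the 10, Igfbp2 made up 0.546% to 1.056% of the summed CPM and Aqp5 2.095% to 3.26%, the widest relative ranges. In whole lung, fewer cells of a type and less RNA per cell cannot be told apart.

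The 20 other alveolar type 1 genes followed the 10. None was called in any of the 5 comparisons by edgeR. In females 5 were lower at an unadjusted p under 0.05, against 14.4% of all genes with a mean of at least 10 CPM. For 6 the female groups did not overlap, with hyperoxia lower, against 15.6% of those genes. In females all 20 were lower after hyperoxia, with log2 changes from -0.93 to -0.27 and a median of -0.44, and in males 12 were higher and 8 lower with a median of 0.02. The best counted were Npnt (nephronectin, a basement membrane ligand), at -0.43 ± 0.34 in females and 0.13 ± 0.34 in males (SE), and Limch1, at -0.27 ± 0.33 and 0.25 ± 0.33. After RUVr with 1 factor, 1 of the 20 was called in females and 2 in the interaction, and without room air F6 1 was called in females. Of all genes, 1900, 2102 and 206 were called there, in the same order.

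Of the 12 Hippo pathway and fate genes all were lower in hyperoxic females, with a median log2 change of -0.32 and a range from -0.45 to -0.11, and none was called. Tead1 (-0.40 ± 0.26, SE) and Wwtr1 (-0.37 ± 0.24) were the best counted. In males 9 of the 12 were higher, with a median of 0.10. Of 9 genes of the transitional epithelial state, through which type 2 cells pass on their way to type 1 after injury, 8 were lower in hyperoxic females with a median of -0.27. The exception, Cldn4, a claudin, was at 0.40 ± 0.20 (SE) and is named because it stood apart after the values were seen. None of the 9 was called, and the best counted were Itgb6 (-0.29 ± 0.18) and Lgals3 (-0.35 ± 0.15).

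Alveolar type 2 and endothelial markers were also lower in hyperoxic females. All 10 alveolar type 2 genes were lower, with a median log2 change of -0.47, and Sftpc, the surfactant protein of type 2 cells, was at -0.57 ± 0.41 and Sftpb at -0.59 ± 0.37 (SE). All 10 endothelial genes were lower, with a median of -0.41, and the endothelial phosphatase Ptprb was at -0.35 ± 0.35 and the junction cadherin Cdh5 at -0.43 ± 0.31. None of these 20 genes was called. Over all genes tested 39.0% were lower in hyperoxic females, with a median log2 change of 0.11 (0.19 without room air F6, 0.047 without room air F5 and 0.0024 once the fit held a receptor-share term), and among the 14605 genes with a mean of at least 10 CPM 71.2% were lower, with a median of -0.17. Beyond the ratios to these lists, the difference between the 10 genes and the others was not tested.

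The remaining marker lists were smaller, and none of their genes was called. In hyperoxic females the median log2 change was -0.10 over 5 lymphatic, -0.34 over 5 mesothelial, -0.16 over 5 fibroblast, -0.56 over 6 airway and -0.02 over 5 macrophage genes. Over 6 cardiac muscle genes it was -0.98, with the smallest adjusted p at 0.0881, and over 6 skeletal muscle genes it was 0.19. In males the skeletal muscle median was -1.88, with room air M1 holding a summed level of 1151 CPM and the other 11 lungs from 58.6 to 86.2 CPM. The parts of these tissues in the results on the 10 genes were not tested.

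**Figure D5:**
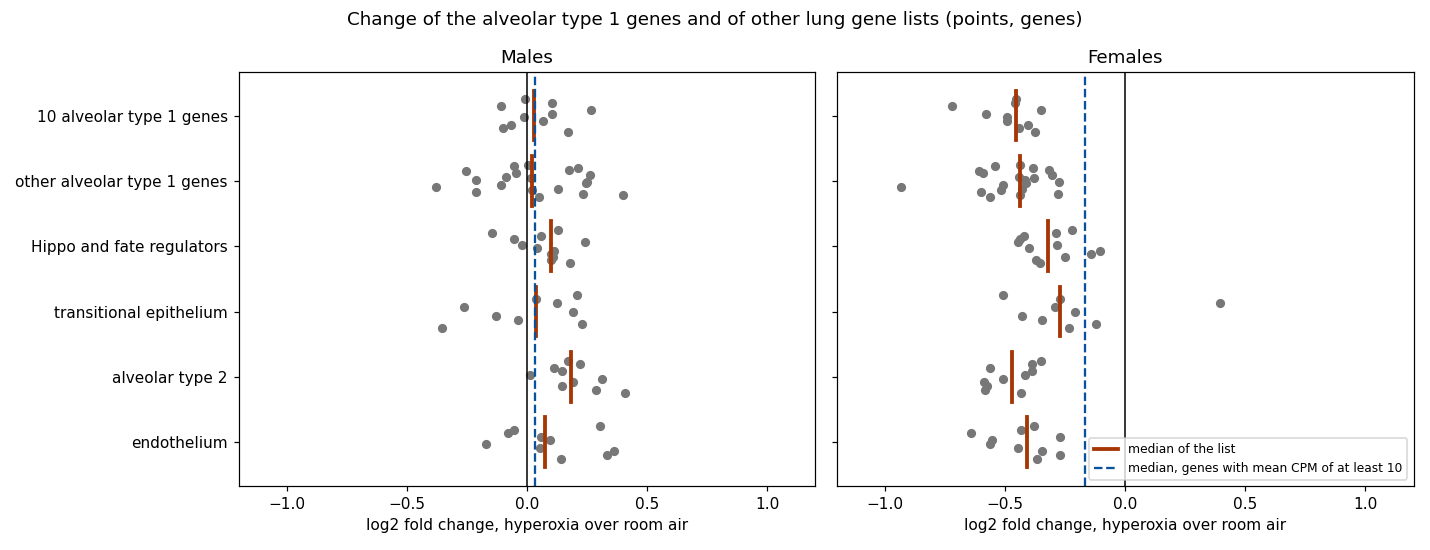
Log2 change with hyperoxia (horizontal axis) of the genes of 6 lists (vertical axis) in males and females, with points for genes, a bar for the median of each list and a dashed line for the median of genes with a mean of at least 10 CPM. In females the medians of the alveolar type 1 genes (-0.46), the other type 1 genes (-0.44), type 2 (-0.47) and endothelial genes (-0.41) lie close together.

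The genes whose levels over the 12 lungs were most like the mean of the 10 (Pearson's r of log2 CPM, among 14595 other genes with a mean of at least 10 CPM) were F11r, Icam1, Pag1, Ttyh3, Ap2b1, Myh9, Slco3a1, Midn, Tet3 and Myo1c. Their r ran from 0.990 to 0.994. They were chosen for these values, so no test was made. None of them is on any of the marker lists used here, and 3141 of the 14595 genes (21.5%) had an r above 0.9. When likeness was measured on deviations from the 4 group means, 4 of the 10 stayed among the 10 closest. F11r, a tight-junction adhesion molecule, changed by -0.47 in females and 0.10 in males, and Icam1, an adhesion molecule of endothelium and alveolar epithelium, by -0.58 and 0.03 (log2). The median r of the marker lists with the mean of the 10 was 0.924 for the other type 1 genes, 0.944 for type 2, 0.950 for endothelium, 0.941 for the Hippo and fate genes and -0.477 for skeletal muscle.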

How the data were processed

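Whole-lung total RNA was sequenced from 12 lungs, 3 for each sex and exposure. The authors trimmed reads (Trim Galore), aligned them to mm10 (STAR) and deposited raw counts per gene (featureCounts). Versions and strand setting are not given in the sources used here, and labels and methods name different library kits. All 12 columns were mapped to lungs by title. Counts were fitted with edgeR 4.0.16 (quasi-likelihood, robust, upper-quartile scaling, filterByExpr, 4 group means, biological coefficient of variation 0.177) in R 4.3.3. Genes were called at an adjusted p under 0.05 and a change over 1.5-fold. DESeq2 1.42.0, RUVr and the alternatives in the closing section were also run, and scripts were tested on simulated data. The receptor share covers 1490 protein-coding genes. Log2 CPM used a prior count of 2. Exon lengths come from GENCODE M21, matched to 55227 genes, and figures were drawn with matplotlib. Named genes were the 10 members, the 2 best counted genes of each list and any called (given for the 5 largest lists), and the 10 genes most like the members. Members and lists were chosen with earlier results of these data known. Beyond separate titles, the labels do not say how lungs were sampled, so p-values measure the spread between these samples. Counting intervals would cover counting error only and were not needed at these counts.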

Additional observations from a re-analysis of the deposited data

How the results depend on the processing

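In males, in the sexes pooled and between the sexes none of the 10 genes was called under any of the alternatives tried. In females 1 of the 10 (Aqp5) was called with RUVr at 1 and at 2 factors (-0.67 under each), and leaving out 1 lung gave 0 to 1 called, the 1 without room air F6. In the interaction 1 (Clic5) was called with RUVr at 1 (-0.65) and at 2 factors (-0.66). Once the fit held a receptor-share term, the female median moved to -0.0016 and the median interaction from -0.56 to 0.081. The cause of these changes was not tested. Under the other alternatives these medians, and under all alternatives those in males, in the sexes pooled and between the sexes, moved by less than the spread between lungs of a group (0.336 on the log2 scale). That spread is wide beside the medians themselves. Subtracting background, or keeping only genes with a mean of at least 10 CPM, shrank the female median and the median interaction by amounts within it.

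Several changes changed sign, small ones in males and in the pooled comparison and larger ones in females and the interaction. In males this held with TMM scaling for Ager (0.0052), with DESeq2 for Ager (0.024) and Emp2 (0.018), without a filter for Ager (0.0083) and Emp2 (0.0012), with background subtracted for Hopx (-0.0021), without the 2 lungs of highest receptor share for Ager (0.078) and Emp2 (0.068), and with the receptor covariate for Clic5 (-0.033), Akap5 (-0.072) and Hopx (-0.051). In females the receptor covariate gave 0.046 for Ager, 0.17 for Cav1, 0.035 for Emp2, 0.094 for Akap5 and 0.059 for Rtkn2. In the pooled comparison Cav1 was at 0.069 among genes with a mean of at least 10 CPM, 0.15 with the covariate, 0.042 with background subtracted and 0.015 without the 2 lungs, and with the covariate Akap5 was at 0.011 and Rtkn2 at 0.046. In the interaction the covariate gave 0.20 for Ager, 0.13 for Pdpn, 0.12 for Aqp5, 0.040 for Cav1, 0.20 for Emp2, 0.17 for Akap5, 0.027 for Rtkn2, 0.013 for Hopx and 0.043 for Igfbp2. With each lung left out in turn, male changes ran from -0.27 to 0.26 for Ager, -0.24 to 0.36 for Akap5, -0.41 to 0.10 for Aqp5, -0.15 to 0.34 for Clic5, -0.28 to 0.24 for Emp2, -0.11 to 0.31 for Hopx, -0.23 to 0.032 for Igfbp2, -0.29 to 0.097 for Pdpn and -0.099 to 0.42 for Rtkn2, and pooled changes from -0.15 to 0.074 for Cav1 and -0.24 to 0.019 for Rtkn2.

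Counts of all genes called moved more. In females 1 gene was called, against 89 with DESeq2, 8 without a filter, 1900 and 1942 with RUVr, 22 with the receptor covariate, 80 on the 6 female lungs, 0 to 206 with 1 lung left out (206 without room air F6, 43 without hyperoxia M2 and 20 without hyperoxia M1), 117 without the 2 lungs of highest receptor share and 0 with TMM, background subtracted or a mean of at least 10 CPM. In males 0 became 16 and 70 with RUVr, 6 with the covariate and 2 on the male lungs alone. The pooled 19 became 40 with DESeq2, 92 and 117 with RUVr, 9 with background subtracted and 0 at a mean of at least 10 CPM. Leaving out 1 lung moved it by over 1.5 times without hyperoxia F5 (3), room air F2 (4), room air M5 (6), hyperoxia F2 (10), room air F6 (32) and hyperoxia M1 (37). The interaction's 0 became 2102 and 2219 with RUVr, and the 559 between the sexes became 1004 without a filter, 1006 and 1044 with RUVr, 977 with the covariate, 266 at 10 counts in every library and 25 at a mean of at least 10 CPM.

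Lungs of both exposures share only the numbers M1, F2 and F5, and deviations of same-numbered lungs correlated at -0.489, 0.215 and -0.325, so the numbers were not taken as pairs. With these numbers as a replicate block the count of the 10 genes called stayed at 0 in females and in the pooled comparison, the medians were -0.58 and -0.12, pooled Rtkn2 turned to 0.065, and 2 of all genes were called pooled. By the thresholds used, changes under 1.5-fold were not called whatever their adjusted p.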
